A study of Homo sapiens with 18 samples.

Results

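Oxidative phosphorylation genes were taken by symbol as the protein-coding genes for subunits of complexes I to V, from both the mitochondrial and the nuclear genome. The rule named the MT-ND, MT-CO, MT-CYB and MT-ATP genes, the NDUFA, NDUFB, NDUFC, NDUFS and NDUFV families, SDHA to SDHD, the UQCR genes, 10 COX genes and the ATP5F1, ATP5M and ATP5P genes. It used no measured value. It found 92 genes among the 60675 listed, of which 13 were encoded by mitochondrial DNA and 79 by the nucleus. The nuclear set held 37 genes for complex I, 4 for complex II, 9 for complex III, 10 for complex IV and 19 for complex V. The mitochondrial set held 7, 0, 1, 3 and 2 for the same complexes. Complexes were assigned by symbol alone and not by where a product sits, so NDUFA4 counts under complex I. In every comparison 90 of the 92 passed the filter on low counts. The remaining members, ATP5MGL and the readthrough ATP5MF-PTCD1, had 21 and 26 counts over all libraries and were not tested.

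RNA Seq counts came from 18 libraries of 2 human cell lines, LNCaP, whose growth depends on androgen, and C4-2, its castration-resistant derivative. Each line gave 3 libraries of cells with scrambled siRNA (siScr) and vehicle, 3 of siScr cells with 1 nM of the synthetic androgen R1881 for 72 h, and 3 of cells given R1881 in the same way while KDM1A and KDM7A were both targeted by siRNA pools (dual knockdown). All cells were transfected with siRNA and kept in medium with hormone-depleted serum, so no group was untransfected, and no group had the dual knockdown without R1881. The vehicle is named as DMSO in one place of the methods and as ethanol in another. KDM1A removes methyl groups from lysines 4 and 9 of histone H3, and KDM7A from lysines 9 and 27. The methods give 3 samples for each siRNA group and do not say for these whether they were separate cultures, so the p-values measure only the spread between these libraries. Each line stands for a single cell line, and bulk RNA cannot tell fewer cells with a transcript from less of it per cell.

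In oxidative phosphorylation, complexes I and II pass electrons from NADH and succinate to ubiquinone, complex III passes them on to cytochrome c and complex IV to oxygen. Complexes I, III and IV pump protons across the inner mitochondrial membrane, and complex V, the ATP synthase, makes ATP as protons flow back. The mitochondrial genome encodes core subunits of complexes I, III, IV and V and is transcribed by its own polymerase as long polycistronic RNAs, whereas complex II and most other subunits are made from separate nuclear genes. Assembly of complexes I, III, IV and V therefore needs products of both genomes. In the prostate, differentiated luminal cells are known for secreting citrate in place of oxidising it, and prostate cancer cells for oxidising more of it.

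Depth ranged from 3182604 to 20154243 counts per library, with a median of 18117641. The shallowest was C4-2 vehicle replicate 3, and C4-2 dual knockdown replicate 1 also stood apart from its group in a chi-square of counts, so results are given without these libraries where they matter. KDM1A had 1902, 1472 and 1965 counts in the LNCaP siScr R1881 libraries and 765, 976 and 1015 with dual knockdown, and 2651, 2483 and 2308 counts in the C4-2 siScr R1881 libraries and 276, 363 and 234 with dual knockdown. The targeted genes fell in both lines, with log2FC of -1.05 in LNCaP and -3.12 in C4-2 for KDM1A and of -0.93 and -2.51 for KDM7A. The 3 C4-2 vehicle libraries were grouped by titles that name C4-2, while their cell line field names LNCaP. Of 1911 genes that differed between the lines with R1881 by a log2FC of at least 2, 95.7% had the same sign in the vehicle libraries. Luminal markers summed to between 1789 and 12620 CPM per library (CPM are counts scaled to a common library size with TMM factors) and basal and leukocyte markers to at most 1.60 and 3.51 CPM, while endothelial, stromal and neuroendocrine markers reached 20.8, 41.98 and 56.8 CPM.

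Promoters of nuclear members, the 300 bases from 250 before to 50 after a RefSeq start site (GRCh38.p14), are shown for SDHB, UQCR10 and ATP5PD, each the member of its complex with the largest difference between the lines with R1881 among those whose window held the 5′ end of the gene in the authors' annotation, and for NDUFB4, the member that fell with R1881. Capitals mark the motifs searched on both strands, which were CGCATGCG (the core of the NRF1 motif), CCGGAAG (bound by ETS factors such as GABPA), AAGATGG (YY1) and CCAAT (NF-Y), where no motif holds another.
SDHB, chr1:17053983-17054282, minus strand: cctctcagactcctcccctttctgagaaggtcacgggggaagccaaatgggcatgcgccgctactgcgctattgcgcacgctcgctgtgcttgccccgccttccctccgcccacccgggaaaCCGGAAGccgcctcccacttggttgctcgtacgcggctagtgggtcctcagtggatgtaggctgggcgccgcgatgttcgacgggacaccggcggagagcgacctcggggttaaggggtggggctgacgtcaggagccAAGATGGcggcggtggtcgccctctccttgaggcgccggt
UQCR10, chr22:29767119-29767418, plus strand: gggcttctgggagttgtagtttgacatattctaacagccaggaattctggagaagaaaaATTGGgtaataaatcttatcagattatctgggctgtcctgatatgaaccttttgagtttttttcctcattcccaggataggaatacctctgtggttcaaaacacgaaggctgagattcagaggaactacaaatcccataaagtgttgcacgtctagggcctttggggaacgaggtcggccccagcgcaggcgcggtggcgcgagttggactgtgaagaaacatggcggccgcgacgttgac
ATP5PD, chr17:75046920-75047219, minus strand: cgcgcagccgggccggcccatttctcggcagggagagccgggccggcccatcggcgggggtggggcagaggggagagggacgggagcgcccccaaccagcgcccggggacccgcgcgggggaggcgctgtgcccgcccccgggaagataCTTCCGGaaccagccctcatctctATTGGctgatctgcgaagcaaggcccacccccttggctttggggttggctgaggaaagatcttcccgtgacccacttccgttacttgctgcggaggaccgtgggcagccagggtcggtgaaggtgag
NDUFB4, chr3:120596086-120596385, plus strand: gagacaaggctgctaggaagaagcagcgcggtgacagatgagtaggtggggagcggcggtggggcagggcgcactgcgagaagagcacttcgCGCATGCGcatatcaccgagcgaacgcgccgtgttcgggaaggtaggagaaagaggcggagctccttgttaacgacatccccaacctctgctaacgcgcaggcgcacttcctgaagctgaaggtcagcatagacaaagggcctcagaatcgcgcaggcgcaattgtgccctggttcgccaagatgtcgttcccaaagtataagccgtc
The promoter of SDHB held CCGGAAG and AAGATGG, that of UQCR10 held CCAAT on its reverse strand, that of ATP5PD held CCGGAAG and CCAAT, both on the reverse strand, and that of NDUFB4 held CGCATGCG. The promoters chosen in the same way for complexes I and IV, of NDUFB8 and COX5A, held none of the 4 and are not shown.

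A promoter was found in the RefSeq table for 63 of the 79 nuclear members, and for 45 of these the 5′ end of the gene in the authors' annotation lay inside the window. CGCATGCG stood in 15.9% of the members' promoters, in 2.02% of all 35116 promoters in the table and in 3.67% of those of protein-coding genes tested. CCGGAAG stood in 31.7%, 10.3% and 18.5% of the same sets, and AAGATGG in 25.4%, 5.84% and 7.33%. CCAAT was the exception, with 31.7%, 34.6% and 36.7%. At least 1 of the 4 stood in 74.6% of the members' promoters and in 54.1% of those of protein-coding genes tested. These are matches of letters, given as a description.

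Mitochondrial-encoded genes had the highest levels per length of all 92. In mean CPM per kilobase of exon over the 18 libraries, MT-CO3, MT-CO2 and MT-CO1, the catalytic core of complex IV, stood at 6416, 6145 and 6124. MT-ND4 of complex I stood at 5144, MT-ATP6 and MT-ATP8 of complex V at 5102 and 4498, and MT-CYB, the cytochrome b of complex III, at 3163. The lowest of the 13 was MT-ND6 at 1082, the only one of them on the light strand. Each of these means lay above that of every nuclear member. Among nuclear members ATP5F1B, the catalytic beta subunit of complex V, led with 713 CPM per kilobase, followed by NDUFS5 of complex I at 318, COX8A of complex IV at 286 and UQCRH of complex III at 185. The nuclear members spread over a wide range, and NDUFV2, a core iron-sulphur subunit of complex I, stood at only 3.07.

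**Figure D1:**
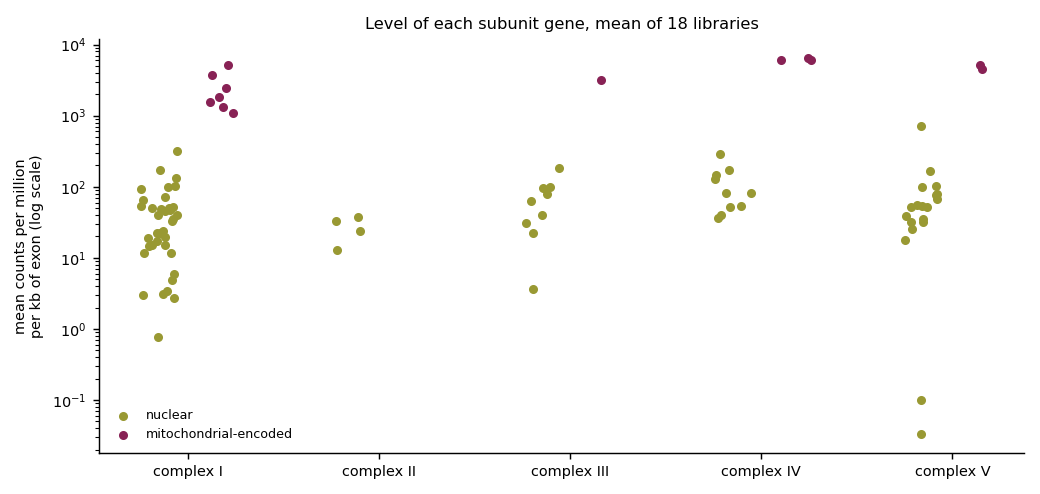
Mean level of each of the 92 subunit genes over 18 libraries, in CPM per kilobase of exon on a log scale, by complex. Each point is a gene; the 13 mitochondrial-encoded genes lie between 1082 and 6416, and the highest nuclear gene, ATP5F1B, lies at 713.

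These levels carry limits of the counting. Libraries were made from polyadenylated RNA and no strand setting is stated for the counting, so without one reads of MT-ND6 cannot be told from antisense RNA of the heavy-strand transcript. MT-ATP8 overlaps MT-ATP6 and MT-ND4L overlaps MT-ND4, and pairs falling on both genes, or mapping equally well to a nuclear copy, were not counted. Of the 79 nuclear members 43 shared exon bases with another gene and 11 shared at least 25% of them, among them NDUFS7 (49.1%), NDUFB8 (48.5%), NDUFB2 (35.9%), COX8A (34.5%) and NDUFV2 (28.4%), where pairs were likewise not assigned. UQCRH and UQCRHL, and ATP5MG and ATP5MGL, are near-identical copies and their counts are uncertain.

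As a share of all counts, the 13 mitochondrial-encoded genes took between 3.74% and 5.32% of a library and the 79 nuclear genes between 0.866% and 1.54%. The nuclear share in LNCaP was 0.881, 0.866 and 0.941% with vehicle, 0.909, 0.980 and 0.948% with R1881 and 1.13, 1.02 and 0.982% with dual knockdown. In C4-2 it was 1.43, 1.30 and 1.38%, 1.54, 1.39 and 1.41% and 1.54, 1.32 and 1.41% in the same order. Every C4-2 library lay above every LNCaP library, and the means differed 1.53-fold with vehicle and 1.53-fold with R1881. The mitochondrial share moved otherwise. It was 3.95, 4.20 and 4.08% in LNCaP with vehicle, 4.36, 4.03 and 3.94% with R1881 and 3.96, 4.22 and 4.005% with dual knockdown, and these groups overlapped. In C4-2 the vehicle libraries were wide apart at 4.85, 5.32 and 3.89%, the R1881 libraries lay close together at 4.83, 4.82 and 4.94%, and the dual knockdown libraries lay below all of these R1881 libraries at 4.01, 4.05 and 3.74%. The mean share with dual knockdown was 0.809 times that of siScr with R1881.

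**Figure D2:**
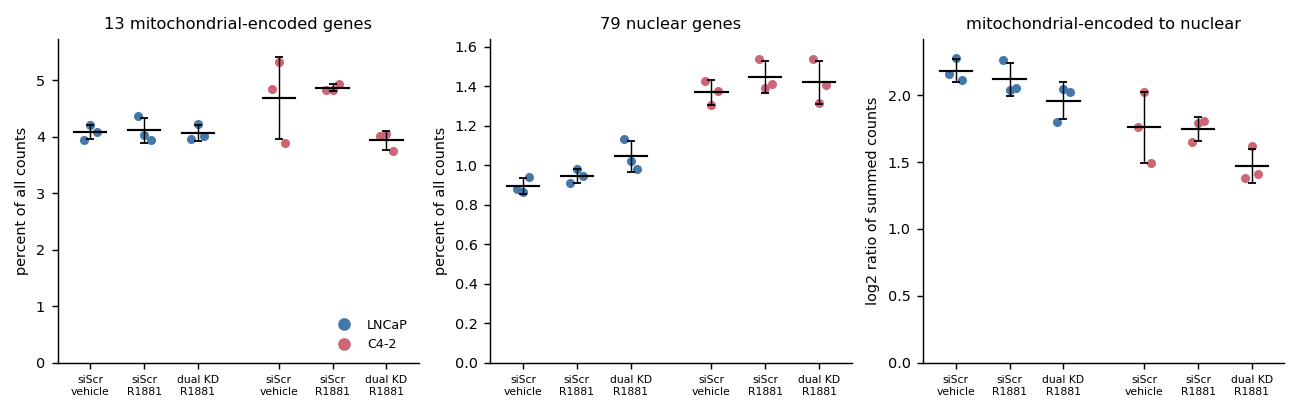
Share of all counts, in percent, taken by the 13 mitochondrial-encoded genes (left) and the 79 nuclear genes (centre), and the log2 ratio of the former to the latter (right), with points for libraries and bars for mean ± SD (n = 3). The nuclear share of every C4-2 library is at least 1.30% and that of every LNCaP library at most 1.13%; the ratio is lowest in C4-2 with dual knockdown.

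The log2 ratio of mitochondrial to nuclear counts fell accordingly from 2.19 ± 0.0834 (SD, n = 3) in LNCaP with vehicle to 1.76 ± 0.266 in C4-2 with vehicle, and these groups did not overlap. With R1881 the ratio was 2.12 ± 0.124 in LNCaP and 1.75 ± 0.0875 in C4-2. With dual knockdown it was 1.96 ± 0.137 and 1.47 ± 0.1301, and these libraries overlapped those of siScr with R1881 in LNCaP and did not in C4-2. When the mean of log2 CPM over genes was used in place of summed counts, the vehicle groups of the lines overlapped, at 5.07 ± 0.0783 and 4.76 ± 0.249, and the siScr R1881 and dual knockdown groups of LNCaP did not, at 4.95 ± 0.129 and 4.77 ± 0.136. No test was made on these sums, since the genes were chosen as a set.

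The comparison of the lines asked how the androgen-dependent cells and their castration-resistant derivative differ in these genes. With vehicle, 65 of 77 nuclear members tested were higher in C4-2 and 2 were lower at an adjusted p under 0.05, with a median log2FC of 0.67, while over all 18684 genes tested 29.4% were higher, 29.5% were lower and the median was -0.01. With R1881, 60 were higher and 1 was lower, with a median of 0.61, against 28.6% and 29.7% of all genes. The vehicle and R1881 libraries are different samples, and 59 genes were higher in both, which is 90.8% of the 65 and 98.3% of the 60. With 65 of 77 higher with vehicle, any 60 members would share most of these, and the overlap was not tested. At a log2FC of at least 1, 10 nuclear members were differentially expressed with vehicle and 6 with R1881, all higher in C4-2, against 24.2% and 23.8% of all genes. Most of the increase was therefore below 2-fold. Without the shallow C4-2 vehicle library, 65 were still higher with vehicle and 2 lower.

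Complex II was higher in C4-2 in all 4 of its genes in both comparisons. SDHB, its iron-sulphur subunit, had 40.0, 42.8 and 44.5 CPM in LNCaP and 94.6, 84.6 and 102 in C4-2 with vehicle, and 45.8, 53.4 and 52.6 and 124, 108 and 112 with R1881. No C4-2 library came near an LNCaP library, and the gene was up-regulated 2.18-fold with vehicle (log2FC 1.13 ± 0.09, adjusted p = 6.87e-10; ± is the SE) and 2.27-fold with R1881 (log2FC 1.18 ± 0.09, adjusted p = 1.65e-10). SDHA, the flavoprotein that oxidises succinate, had 127, 133 and 137 CPM in LNCaP and 289.9, 287 and 232 in C4-2 with vehicle (log2FC 1.03 ± 0.08, adjusted p = 2.17e-10) and a log2FC of 0.94 with R1881. The membrane anchors SDHC and SDHD gave 0.39 and 0.82 with vehicle and 0.34 and 0.98 with R1881.

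Complex I had 30 of 37 nuclear genes higher and 1 lower with vehicle, and 28 higher and 0 lower with R1881. All 8 NDUFS genes, which include the iron-sulphur core subunits, were higher in both, with medians of 0.93 and 0.68. NDUFB2, an accessory subunit of the membrane arm, had 45.8, 51.5 and 56.1 CPM in LNCaP and 143, 129 and 98.3 in C4-2 with vehicle, and 61.3, 65.5 and 62.9 and 169, 139 and 148 with R1881. The lines did not overlap (log2FC 1.29 ± 0.13, adjusted p = 1.63e-08 with vehicle; log2FC 1.26 ± 0.12, adjusted p = 1.42e-08 with R1881). NDUFA5, an accessory subunit of the peripheral arm, had 87.0, 107 and 98.0 CPM in LNCaP and 269, 227 and 222 in C4-2 with R1881, the largest difference among the 77 in that comparison (log2FC 1.30 ± 0.09, adjusted p = 2.78e-11). The accessory subunits NDUFA10 and NDUFA8 gave log2FC of 1.10 and 0.87 with vehicle and 0.98 and 1.03 with R1881. NDUFS7, which holds the last iron-sulphur cluster before ubiquinone, gave 1.09 with vehicle, but C4-2 vehicle replicate 3 overlapped LNCaP, at 61.2, 51.4 and 24.4 against 23.2, 19.3 and 26.0 CPM. NDUFB8 gave 1.05 with R1881 from few counts, 8.57, 8.63 and 7.23 against 18.2, 15.1 and 17.4 CPM. NDUFA13, also called GRIM-19, was the exception and was lower with vehicle, at 8.999, 7.73 and 9.87 CPM in LNCaP and 7.03, 5.66 and 4.07 in C4-2 (log2FC -0.57 ± 0.16, adjusted p = 0.00371), whereas with R1881 its groups overlapped (log2FC -0.30 ± 0.15, adjusted p = 0.0865).

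Complexes III and IV followed the same direction. In complex III 7 of 9 genes were higher with vehicle and 5 with R1881, and UQCR10, a small subunit next to cytochrome c1, rose from 45.3, 41.5 and 51.9 CPM to 113, 103 and 131 with vehicle (log2FC 1.31 ± 0.11, adjusted p = 1.70e-09). With R1881 its log2FC was 0.97. UQCRB, a subunit near the ubiquinone site, was an exception with log2FC -0.16 ± 0.11, adjusted p = 0.209 with vehicle and log2FC 0.19 ± 0.11, adjusted p = 0.128 with R1881. In complex IV 8 of 10 genes were higher in each comparison, with medians of 0.69 and 0.58. COX8A, its smallest nuclear subunit, had 77.1, 72.7 and 103 CPM in LNCaP and 214, 176 and 139 in C4-2 with vehicle (log2FC 1.08 ± 0.17, adjusted p = 1.00e-05) and a log2FC of 0.84 with R1881.

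Complex V had 16 of 17 tested nuclear genes higher with vehicle and 15 with R1881, and 1 lower in both. ATP5MF, a subunit of the membrane part, had 56.4, 71.4 and 78.1 CPM in LNCaP and 211, 165 and 135 in C4-2 with vehicle, the largest difference of the 77 in that comparison (log2FC 1.33 ± 0.14, adjusted p = 2.89e-08), and a log2FC of 1.29 with R1881. ATP5F1D, the delta subunit of the central stalk, was up-regulated with vehicle (log2FC 1.02 ± 0.18, adjusted p = 4.40e-05). ATP5F1B, the most abundant nuclear member, gave 0.90 and 0.81. The ATP5MC genes make the same rotor-ring protein from 3 loci, and these went apart. ATP5MC3 was higher in C4-2 (log2FC 1.01 ± 0.09, adjusted p = 3.81e-09 with vehicle), ATP5MC1 gave 0.35 and 0.37, and ATP5MC2 was lower. ATP5MC2 had 137, 124 and 146 CPM in LNCaP and 97.9, 87.4 and 90.5 in C4-2 with vehicle (log2FC -0.56 ± 0.10, adjusted p = 3.66e-05), and 149, 162 and 161 and 102, 104 and 110.2 with R1881 (log2FC -0.58 ± 0.09, adjusted p = 1.57e-05). It was the only member lower in C4-2 in both comparisons.

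**Figure D3:**
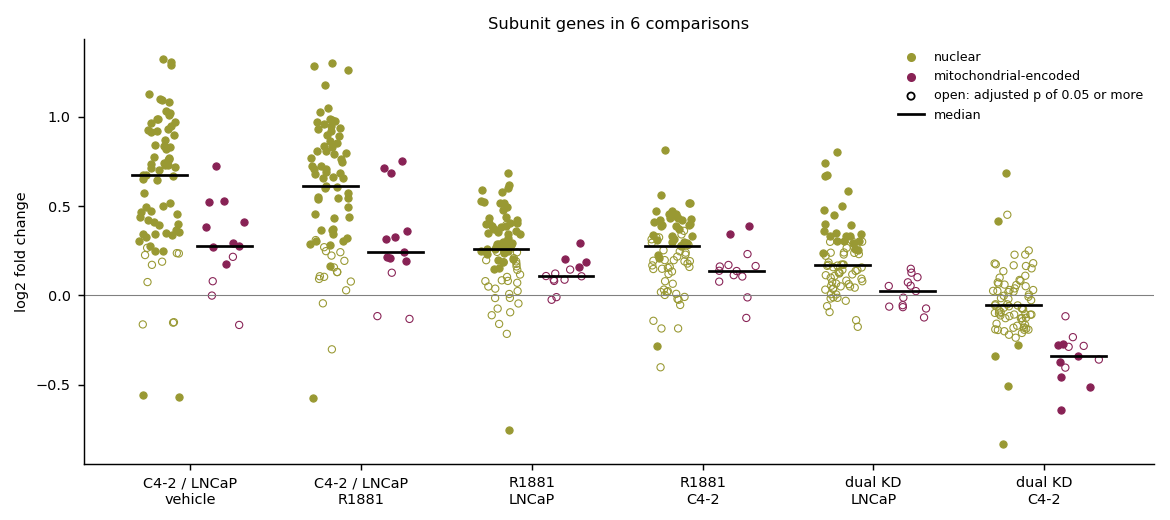
Log2 fold change of each tested subunit gene in 6 comparisons, for 77 nuclear and 13 mitochondrial-encoded genes; filled points had an adjusted p under 0.05 and bars are medians. Nuclear medians are 0.67 and 0.61 between the lines, and the mitochondrial-encoded genes have their lowest median, -0.34, with dual knockdown (dual KD) in C4-2.

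Mitochondrial-encoded genes were also higher in C4-2, by less in the median than the nuclear genes. With vehicle 9 of 13 were higher in C4-2 and 0 lower, with a median log2FC of 0.28, and with R1881 10 were higher and 0 lower, with a median of 0.24. Of all genes tested 29.4% were higher and 29.5% lower with vehicle, and 28.6% and 29.7% with R1881. The 9 genes were all among the 10. Some of them overlapped between the lines with vehicle. MT-ATP6 had 2531, 3020 and 2948 CPM in LNCaP and 4449, 5301 and 2502 in C4-2, and MT-CO3 overlapped as well. The sizes were uneven along the genome. MT-ATP8 (log2FC 0.75 ± 0.10, adjusted p = 1.82e-06 with R1881), MT-CO2 (log2FC 0.71 ± 0.10, adjusted p = 2.79e-06) and MT-ATP6 (log2FC 0.69 ± 0.15, adjusted p = 0.00065), neighbours on the heavy strand, led the increase. MT-CO2 had 3582, 3608 and 3409.7 CPM in LNCaP and 5947, 5522 and 5897 in C4-2 with R1881, and the lines did not overlap. MT-CO1, next to it, had 11019, 11145 and 10945 and 10485, 9657 and 10082 CPM and did not pass the test (log2FC -0.13 ± 0.09, adjusted p = 0.229). MT-ND1 and MT-ND2 likewise did not pass, with log2FC of -0.12 and 0.13. With vehicle, 11 of the 13 were higher without the shallow C4-2 replicate 3, and 6 were higher and 1 lower without C4-2 replicate 2. With R1881, 5 were higher without LNCaP replicate 3.

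The R1881 comparison asked what androgen changes in siScr cells, and uses the same siScr libraries as the comparison of the lines. In LNCaP 48 of 77 nuclear members rose and 1 fell with R1881, with a median log2FC of 0.26, while 23.5% of the 17162 genes tested rose, 23.2% fell and their median was -0.04. In C4-2 32 rose and 1 fell, with a median of 0.27, against 17.1% and 15.7% of 16965 genes and a median of -0.02. No member reached a log2FC of 1 in either line, where 12.3% and 9.07% of all genes were differentially expressed. The size depended on scaling. In summed CPM the nuclear members with R1881 stood at 1.176 times vehicle in LNCaP and 1.162 times in C4-2, without overlap. As a share of all counts, without TMM factors, they stood at 1.055 and 1.057 times vehicle, and the groups overlapped in both lines. The lines share no library here, and 25 members rose in both, which is 52.1% of the 48 and 78.1% of the 32. With 48 of 77 rising in LNCaP, any 32 members would share many of these, and the overlap was not tested. The C4-2 count rested on single libraries, being 13 without R1881 replicate 1, 23 without R1881 replicate 3, 19 without vehicle replicate 2 and 35 without the shallow vehicle replicate 3.

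By complex, all 4 complex II genes rose in LNCaP and 3 in C4-2. Complex I had 18 of 37 rising in LNCaP and 12 in C4-2, complex III 5 of 9 in each, complex IV 8 of 10 and 1, and complex V 13 of 17 and 11. Of all genes 23.5% rose in LNCaP and 17.1% in C4-2. All 10 complex IV genes had a positive log2FC in both lines, with medians of 0.27 and 0.26. The test of the difference between the lines called 0 of these 10. NDUFC2, an accessory subunit of the complex I membrane arm, led both lines. It rose from 28.0, 31.6 and 32.4 to 46.2, 55.6 and 48.8 CPM in LNCaP (log2FC 0.69 ± 0.08, adjusted p = 2.53e-06) and from 30.0, 27.9 and 22.7 to 62.5, 37.8 and 45.4 in C4-2 (log2FC 0.82 ± 0.16, adjusted p = 0.00111). Its groups did not overlap in either line, which the choice of the largest changes required. NDUFB3 and NDUFC1, also accessory subunits of the membrane arm, rose by log2FC of 0.62 and 0.60 in LNCaP and 0.52 and 0.43 in C4-2. In C4-2 UQCRB rose from 193, 164 and 156 to 284, 229 and 249 CPM (log2FC 0.56 ± 0.10, adjusted p = 0.000663), whereas in LNCaP its groups overlapped (log2FC 0.19 ± 0.09, adjusted p = 0.0961). ATP5MD, a small subunit of the ATP synthase membrane part now named ATP5MK, rose in LNCaP (log2FC 0.53 ± 0.09, adjusted p = 0.000129) and in C4-2 (log2FC 0.52 ± 0.12, adjusted p = 0.00511).

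NDUFB4, another accessory subunit of the complex I membrane arm, was the only member that fell with R1881. In LNCaP it went from 275, 267 and 282 to 165, 167 and 164 CPM, with replicates close together (log2FC -0.75 ± 0.06, adjusted p = 6.65e-09). In C4-2 it went from 310.0, 337 and 335 to 291, 257 and 261 CPM (log2FC -0.28 ± 0.08, adjusted p = 0.0124), a call lost without R1881 replicate 2 or 3. The groups did not overlap in either line, which the choice of the largest changes required. It was the only member whose R1881 response differed between the lines, by 0.46 (adjusted p = 0.00155), where 6.05% of 18684 genes differed upwards, 7.95% downwards and 4.32% with a difference of at least 1. No mitochondrial-encoded gene differed between the lines in this response.

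**Figure D4:**
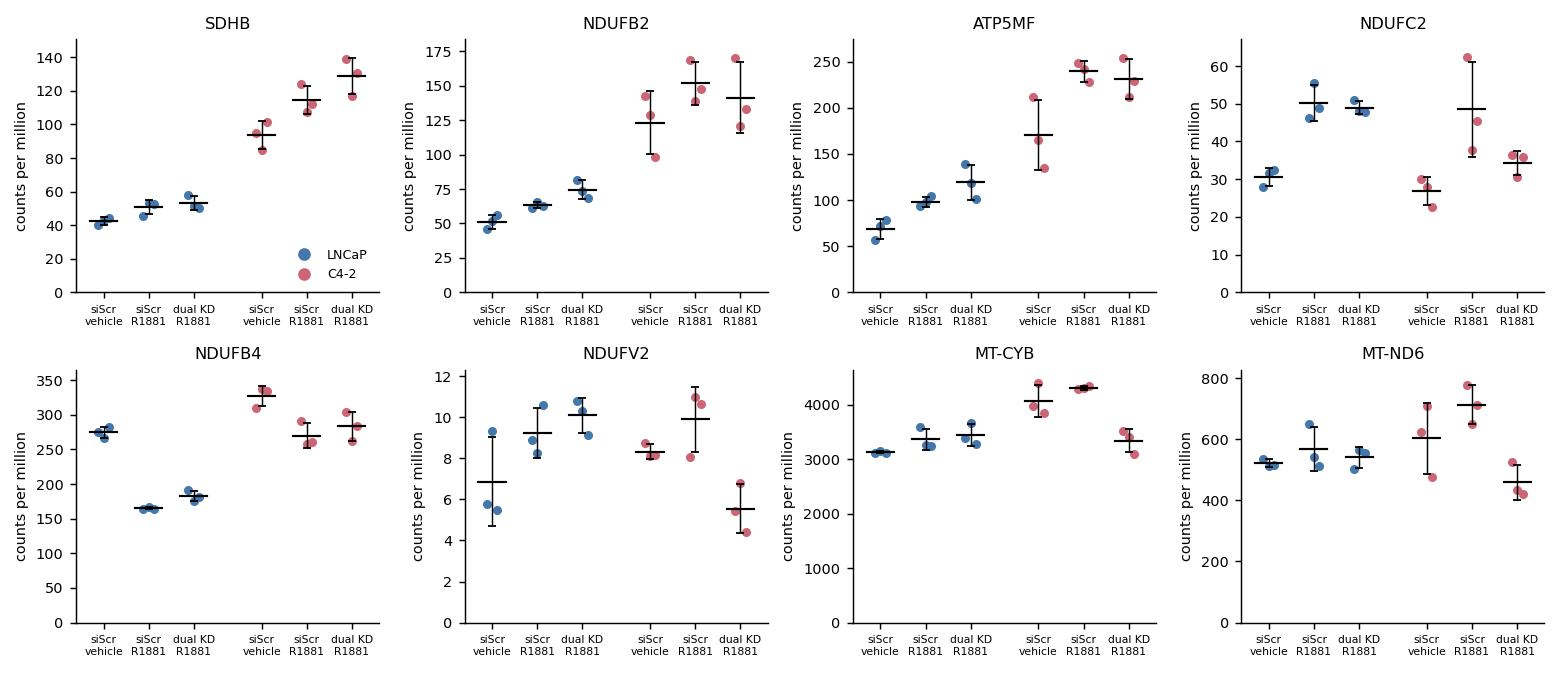
CPM of 8 subunit genes by group, with points for libraries and bars for mean ± SD (n = 3); dual KD is dual knockdown, and each vertical axis starts at 0. SDHB and NDUFB2 are higher in every C4-2 library than in any LNCaP library, NDUFB4 is lower with R1881 than with vehicle in both lines, and MT-CYB is lower with dual knockdown than with siScr and R1881 in C4-2.

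Changes of the mitochondrial-encoded genes with R1881 were small in size. In LNCaP 4 of 13 rose and 0 fell, with a median log2FC of 0.11, where 23.5% of all genes rose and 23.2% fell. In C4-2 2 of 13 rose and 0 fell, with a median of 0.14, where 17.1% of all genes rose and 15.7% fell. With 13 genes, the numbers that rose were near these shares. MT-CO1, the subunit of complex IV that reduces oxygen, went from 8064, 9491 and 9133 to 11019, 11145 and 10945 CPM in LNCaP (log2FC 0.29 ± 0.06, adjusted p = 0.000327) and from 8683, 8912 and 6193 to 10485, 9657 and 10082 in C4-2 (log2FC 0.34 ± 0.10, adjusted p = 0.0192). MT-CO2 rose in both lines as well (log2FC 0.19 ± 0.06, adjusted p = 0.00991; log2FC 0.39 ± 0.11, adjusted p = 0.0158), and MT-ND4L and MT-ND4 rose in LNCaP by 0.20 and 0.16. Of these increases only that of MT-CO1 in LNCaP held under every alternative, and in C4-2 0 of 13 rose without R1881 replicate 1 or 3. Without the shallow C4-2 vehicle replicate 3, 2 rose and 1 fell there, with a median of 0.04, and without vehicle replicate 2, 4 rose, with a median of 0.29.

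The dual knockdown comparison asked what depletion of both demethylases changes in the presence of R1881. It shares the siScr R1881 libraries with the R1881 comparison. In LNCaP 23 of 77 nuclear members rose and 0 fell, with a median log2FC of 0.17, against 8.27% of all genes tested that rose, 5.89% that fell and 0.286% that were differentially expressed. NDUFB7, an accessory subunit of complex I, went from 39.9, 40.8 and 38.1 to 75.2, 69.5 and 59.8 CPM (log2FC 0.80 ± 0.11, adjusted p = 0.00109). NDUFS7 went from 26.7, 19.9 and 21.4 to 41.6, 38.2 and 33.1 CPM (log2FC 0.74 ± 0.12, adjusted p = 0.00257) and NDUFA11, an accessory membrane subunit, from 14.2, 12.5 and 15.9 to 22.5, 23.9 and 21.0 (log2FC 0.68 ± 0.11, adjusted p = 0.00204). In each of these genes all 3 dual knockdown libraries lay above all 3 siScr libraries, but the largest changes were named only from members without overlap. ATP5F1D and COX8A gave log2FC of 0.67 and 0.58, and all 3 ATP5MC genes rose. By complex, 10 of 37 rose in complex I, 0 of 4 in complex II, 4 of 9 in complex III, 4 of 10 in complex IV and 5 of 17 in complex V. No member was differentially expressed.

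This LNCaP count was not stable. It was 7 without dual knockdown replicate 1, 12 without dual knockdown replicate 2, and 15, 11 and 11 without R1881 replicates 1, 2 and 3. It was 13 with the trend of counts with exon length removed from each library, and 18 with the trend with GC content removed. The calls of NDUFA11 and ATP5F1D were lost with the GC trend removed. That of NDUFA11 was also lost with counts thinned to the smallest library. Beside the members, the cytosolic ribosomal protein genes, also short and abundant, took 5.04 ± 0.184% (SD, n = 3) of counts with siScr and 5.92 ± 0.545% with dual knockdown, without overlap, and their part in the result was not tested. Between the lines this share went the other way, from 5.85% in LNCaP to 4.07% in C4-2 with vehicle. No mitochondrial-encoded gene changed in LNCaP, where their median log2FC was 0.02 and the values ran from -0.12 for MT-ND4L to 0.15 for MT-ND3. At an unadjusted p under 0.05, MT-CO3, MT-ND3 and MT-ND4L passed, and DESeq2 called 1 of the 13 lower. With the trend with exon length removed 2 of the 13 fell, and with the trend with GC content removed 2 rose.

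In C4-2 the mitochondrial-encoded genes were lower with dual knockdown. All 13 had a negative log2FC, with a median of -0.34, and 7 fell at an adjusted p under 0.05, while 10.8% of the 16965 genes tested fell, 12.7% rose and 3.94% were differentially expressed. MT-CYB (GRCh38, MT:14747-15887, plus strand) went from 4282, 4305 and 4344 to 3514, 3406 and 3098 CPM, with no overlap (log2FC -0.37 ± 0.07, adjusted p = 0.00142). MT-ND5, a proton-pumping core subunit of complex I, went from 3293, 3302 and 3275 to 2374, 2383 and 2195 CPM (log2FC -0.51 ± 0.07, adjusted p = 0.000124). MT-ND6 (MT:14149-14673, minus strand) showed the largest fall, from 778, 649 and 712 to 525, 434 and 420.4 CPM (log2FC -0.64 ± 0.12, adjusted p = 0.00158). In these genes each dual knockdown library lay below each siScr R1881 library. MT-ATP8, MT-ND4L, MT-ND4 and MT-ND3 also fell, with log2FC of -0.46, -0.34, -0.28 and -0.27, although the groups of MT-ND3 overlapped.

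The genes that did not pass were MT-ND1, MT-ND2, MT-CO1, MT-CO2, MT-ATP6 and MT-CO3, with log2FC from -0.40 to -0.12 and adjusted p from 0.0512 to 0.522. Of the 7 falls complex I held 5, complex III 1, complex V 1 and complex IV, with MT-CO1 to MT-CO3, 0. These counts do not set complex IV apart, because the sizes overlapped. The complex IV values ran from -0.29 to -0.12, with a median of -0.28. Those of the 7 complex I genes ran from -0.64 to -0.23, with a median of -0.34. No member reached a fall of 1 on the log2 scale. Without C4-2 siScr R1881 replicate 3 the number was 4, and without dual knockdown replicate 1, which stood apart, it was 8. With DESeq2 it was 11, and in a fit to the compared groups 12. The mitochondrial rRNA genes, which are no members, moved with them. MT-RNR1 had a log2FC of -1.18 (adjusted p = 8.01e-06) and MT-RNR2 of -0.46 (adjusted p = 0.000298), and the share of counts in mitochondrial rRNA was 3.89, 3.88 and 3.92% with siScr and 2.47, 2.75 and 2.63% with dual knockdown.

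**Figure D5:**
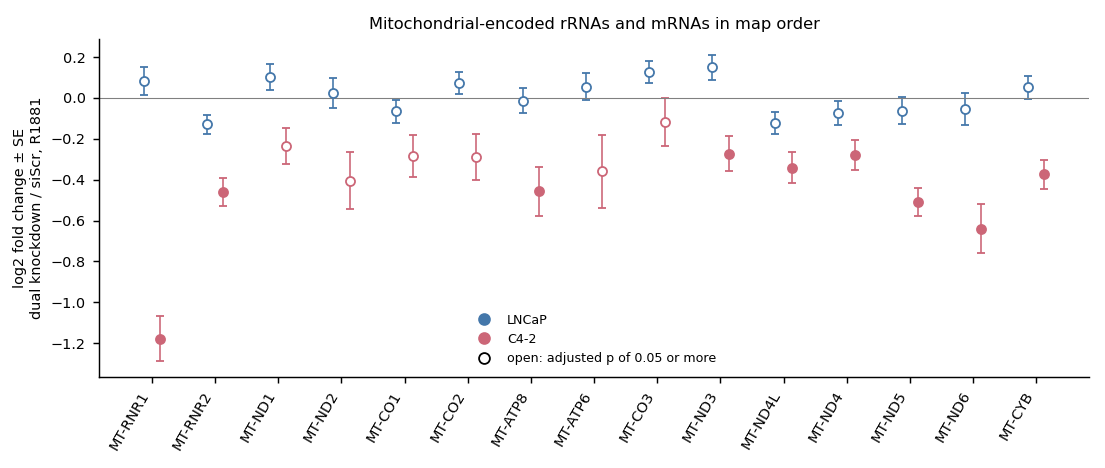
Log2 fold change ± SE with dual knockdown against siScr, both with R1881, for the mitochondrial rRNAs and the 13 mRNA genes in their order on the mitochondrial genome, in LNCaP and C4-2 (3 libraries per group); filled points had an adjusted p under 0.05. All C4-2 points lie below 0 and the LNCaP points lie between -0.13 and 0.15.

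The difference between the lines in this response was itself tested. MT-CYB differed by -0.40 (adjusted p = 0.00533), MT-ND5 by -0.43 (0.00609), MT-ND3 by -0.40 (0.0213) and MT-ND6 by -0.56 (0.0282). All 4 had fallen in C4-2 and none had changed in LNCaP, and all 13 differences were negative, with a median of -0.39. Over all 18684 genes 6.97% differed upwards, 3.88% downwards and 1.99% with a difference of at least 1. With the trend of counts with exon length removed, 0 of the 13 passed. The number was 2 without C4-2 siScr R1881 replicate 1, C4-2 dual knockdown replicate 2 or LNCaP siScr R1881 replicate 3, and at most 6 without any other library. The depletion of the targets also differed, KDM1A by -2.04 and KDM7A by -1.56, so the lines were not compared at equal depletion.

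Few nuclear members changed with dual knockdown in C4-2. Of 77, 2 rose and 4 fell, with a median log2FC of -0.06, where 12.7% of all genes rose and 10.8% fell. The risers were ATP5MC1, from 75.3, 66.0 and 67.0 to 129, 101 and 107 CPM (log2FC 0.69 ± 0.09, adjusted p = 0.000106), and ATP5MC2, from 102, 104 and 110.2 to 168, 124 and 132 (log2FC 0.42 ± 0.10, adjusted p = 0.00668), which also rose in LNCaP by 0.33 and 0.39. Both encode the rotor-ring protein of complex V. NDUFV2 went from 8.07, 11.0 and 10.6 to 5.45, 6.79 and 4.42 CPM (log2FC -0.83 ± 0.17, adjusted p = 0.0032), from few counts. Its groups did not overlap, which the choice of the largest changes required. NDUFC2, which had risen with R1881 in these same siScr libraries, went from 62.5, 37.8 and 45.4 to 36.3, 30.5 and 36.0 CPM (log2FC -0.51 ± 0.15, adjusted p = 0.0245). This call was lost without siScr R1881 replicate 1 or 3, or without dual knockdown replicate 2 or 3. SDHA and SDHC of complex II fell, with log2FC of -0.34 (adjusted p = 0.0117) and -0.28 (adjusted p = 0.00797), while SDHB and SDHD gave 0.16 and 0.23 and did not pass. The call of SDHA was lost without siScr R1881 replicate 3 or dual knockdown replicate 2 or 3.

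The number that fell was 9 without dual knockdown replicate 1, and 2 without dual knockdown replicate 2 or without siScr R1881 replicate 3. NDUFV2 was the only nuclear member whose response differed between the lines (-0.95, adjusted p = 0.0237), a call lost when any 1 of 7 libraries was left out. Without C4-2 dual knockdown replicate 1 the number of nuclear members lower in this difference was 24 in place of 1, and it was 0 without C4-2 siScr R1881 replicate 3, C4-2 dual knockdown replicate 3 or LNCaP dual knockdown replicate 1 or 2.

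Other mitochondrial gene lists were counted in the same comparisons. Of 78 mitochondrial ribosomal protein genes, whose products translate the 13 mRNAs, 58 were higher and 3 lower in C4-2 with vehicle (median 0.53), and 53 and 2 with R1881 (0.54), against 29.4% and 29.5%, and 28.6% and 29.7%, of all genes. With R1881 43 of them rose and 3 fell in LNCaP, against 23.5% and 23.2% of all genes, and 31 and 0 in C4-2, against 17.1% and 15.7%. The tricarboxylic acid cycle feeds NADH and succinate to the chain. Of 18 genes listed for it, 16 were higher and 1 lower in C4-2 with vehicle, and 15 and 1 with R1881. With R1881 13 of the 18 rose and 0 fell in LNCaP, and 9 rose and 1 fell in C4-2. Assembly factors were 33 higher and 3 lower of 54 in C4-2 with vehicle (median 0.32), and 26 and 6 with R1881 (0.23). The shares of all genes are those given above for each comparison. With dual knockdown in C4-2, 1 mitochondrial ribosomal protein rose and 10 fell, where 12.7% of all genes rose and 10.8% fell, so the falls were near that share. Of the 18 tricarboxylic acid cycle genes 1 rose and 6 fell there, above that share, with a median of -0.11. Of the 54 assembly factors 3 rose and 6 fell.

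Regulators of the nuclear genes were counted as well. PPARGC1A, a coactivator of mitochondrial biogenesis, was higher in C4-2 by 5.64 with vehicle and 5.01 with R1881, its relative PPARGC1B by 1.63 and 1.62, and their partner ESRRA by 1.47 and 1.17. PPARGC1A had 0 to 5 counts in each LNCaP library and was too low to be tested within that line, so the size of its difference is imprecise. NRF1, an activator of respiratory chain genes, fell with R1881 in LNCaP (log2FC -0.54 ± 0.09, adjusted p = 0.000121) and gave log2FC 0.09 ± 0.10, adjusted p = 0.614 between the lines with vehicle and log2FC 0.34 ± 0.10, adjusted p = 0.00502 with R1881. Of the 20 regulators tested 6 were higher and 4 lower in C4-2 with vehicle, against 29.4% and 29.5% of all genes, and 9 and 5 with R1881, against 28.6% and 29.7%.

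Genes that act on mitochondrial DNA and its transcripts were counted last. TFAM, which packages mitochondrial DNA and starts its transcription, was lower in C4-2 (log2FC -0.51 ± 0.10, adjusted p = 9.57e-05 with vehicle; log2FC -0.44 ± 0.09, adjusted p = 0.000384 with R1881) and gave 0.02 with dual knockdown in C4-2 (adjusted p = 0.912). The mitochondrial RNA polymerase POLRMT gave 0.16 in the same comparison (adjusted p = 0.467), and LRPPRC and SLIRP, which stabilise the mRNAs, gave -0.19 (0.0853) and 0.11 (0.498). Of 23 genes for transcription and maintenance of mitochondrial DNA 2 rose and 3 fell with dual knockdown in C4-2, and of 22 for processing and stability of its RNA 2 rose and 1 fell, where 12.7% of all genes rose and 10.8% fell. CYCS, the cytochrome c that carries electrons between complexes III and IV, was higher in C4-2 by 0.72 with vehicle and 0.93 with R1881. NDUFA4L2, a hypoxia-induced relative of NDUFA4, had log2FC of -1.49 and -0.82 in the same comparisons, COX7A1 gave -0.75 and -0.06 and did not pass the test, and COX4I2 was too low to be tested.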

How the data were processed

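Gene counts of 18 libraries were used as deposited. According to the methods and the processing notes, the authors captured polyadenylated RNA, sequenced pairs of 150 bases, trimmed them with Trim Galore, aligned them to GRCh38 with STAR and counted pairs per gene with featureCounts 1.5.0-p1 on Ensembl 83, with no strand setting stated. The counts were not normalised. Samples were grouped by title. Separate fits (LNCaP, C4-2 and both lines) were made in edgeR 4.0.16 (R 4.3.3) with TMM factors, its filter on low counts and its quasi-likelihood test, and p-values were adjusted by Benjamini-Hochberg over all genes tested. A gene changed at an adjusted p under 0.05 and was differentially expressed if its log2FC was also at least 1 in size. CPM divide a count by the library total times its TMM factor over all 18 libraries, whereas shares divide by the total alone. The shallowest library has the least precise values.

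Members and lists were chosen with earlier results of these data known. The genes named are the 13 mitochondrial-encoded mRNA genes, the targets, per comparison every differentially expressed member and the 3 largest changes each way among nuclear members with at least 1 CPM and no overlap, the highest per length in each complex, and some regulators. SDHC, SDHD, UQCRB between the lines, ATP5PD, COX5A, NDUFC1, ATP5MC1 and genes named for shared exons were added after their values were seen. Alternatives were DESeq2 1.42.0, RLE factors, other filters, thinned counts, removal of a length trend, fits to the compared groups, a replicate block, omission of the mitochondrial-encoded genes and of each library and, chosen after seeing the data, removal of a GC trend. The fits were also run on simulated data with the same spread for every gene. That does not show how they handle small changes or libraries that stand apart. Symbols were matched to RefSeq promoters (GRCh38.p14). Symbols of the deposited Ensembl identifiers were taken from GENCODE 29, which held 57055 of 60675.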

Additional observations from a re-analysis of the deposited data

Results flagged for a closer look

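The following responses differed between the lines by a test of the difference itself, given as C4-2 minus LNCaP on the log2 scale with the edgeR adjusted p. For R1881 they were NDUFB4, 0.46 (0.00155), and KDM7A, 0.60 (0.00488). For the dual knockdown they were MT-ND3, -0.40 (0.0213), MT-ND5, -0.43 (0.00609), MT-ND6, -0.56 (0.0282), MT-CYB, -0.40 (0.00533), NDUFV2, -0.95 (0.0237), the mitochondrial rRNAs MT-RNR1, -1.24 (1.29e-05), and MT-RNR2, -0.31 (0.0179), the targets KDM1A, -2.04 (2.36e-09), and KDM7A, -1.56 (6.06e-07), and PPARGC1A, 2.05 (0.0458), which was too low in LNCaP to be tested within that line. The differences of MT-ND3, MT-ND6 and NDUFV2 lost their calls when some single libraries were left out. The part of the unequal depletion of the targets in these differences was not tested.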

How the results depend on the processing

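No value of a named member that passed the test changed direction. Of 118 such values 78 passed it under every alternative, and the other values lost it under some, 138 of 1888 fits in all. The number of members changed moved by over 1.5 times as follows; the cause was not tested. With dual knockdown in LNCaP it was 23, and 15 with thinned counts and 15 with the length trend removed. With dual knockdown in C4-2 it was 13, and 21 in a fit to the compared groups. The line difference in the R1881 response had 1 member, and 2 with thinned counts and 3 without the filter. The line difference in the dual knockdown response had 5, and 12 with DESeq2, 14 with the GC trend removed, 10 at a mean of at least 1 CPM, 20 without the filter and 14 in a fit to the compared groups. Omitting each library gave 45 to 59 members for R1881 in LNCaP (53 in all libraries), 14 to 40 in C4-2 (35), 7 to 27 for dual knockdown in LNCaP, 8 to 19 in C4-2, 68 to 78 between the lines with vehicle (76), 61 to 72 with R1881 (71), 1 for the line difference in the R1881 response and 3 to 30 for that in the dual knockdown response.

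Replicate numbers recur across groups, but nothing ties same-numbered libraries together, and the correlations of their deviations from the group means ran from -0.34 to 0.28. With the replicate number as a block, 22 members changed with dual knockdown in C4-2 and 10 in the line difference of that response; the other counts stayed within 1.5 times. Depth limits NDUFV2, NDUFA13 and NDUFB8 most among the named members, since they have few counts.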
